A study of Mus musculus with 17 samples.

Results

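Genes that mark mesothelium and the ovarian surface were followed across mouse ovarian tumours grown from the ID8 line. The set holds 8 genes, Wt1, Msln, Upk3b, Upk1b, Lrrn4, Calb2, Pdpn and Gpm6a, of 43629 genes in the table of read counts. They were taken by symbol, and all 8 passed the filter on low counts. The symbol Pdpn stood on 2 identifiers, of which 1 (ENSMUSG00000096951) had no count in any library and was left aside. The series measured total RNA in 17 libraries of 8 groups. It asks how ID8 cells shift between epithelial and mesenchymal states with the site they grow in. The groups were the cultured ID8 line (1 library), labelled as a mouse ovarian surface line and grown in serum, orthotopic tumours from cells put into the ovarian bursa (3), subcutaneous tumours (2), the first tap of ascites from mice with ovarian tumours (3), the second tap (3), solid tumours on the intestine that spread from the ovary (3), and healthy ovary (1) and healthy intestine (1) of C57BL6 mice. The sample labels place the subcutaneous tumours on the scruff and the protocol on the flanks. The labels do not say which samples shared an animal, so p-values measure only the spread between these samples. Replicates are named by the number in their label.

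Mesothelium is the thin sheet of cells that lines the peritoneal cavity and covers the organs in it, and the surface epithelium of the ovary is its continuation. Both arise from the coelomic lining and carry keratins together with mesenchymal genes. WT1, mesothelin and calretinin, the product of Calb2, are used in pathology to recognise mesothelium, and WT1 and mesothelin are also common in serous ovarian carcinoma. Host mesothelium and ID8 cells can therefore carry the same markers, and the counts do not separate them. In bulk RNA, fewer cells of a type and less RNA per cell cannot be told apart.

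Libraries held 12031221 to 38902048 counts, fewest in tumour on the intestine 1 and most in orthotopic tumour 1. Genes with a count numbered 33393 in subcutaneous tumour 3, 32846 in first tap 3 and 32775 in second tap 1, against at most 26838 in the other libraries. Host tissue differed between libraries. The 5 macrophage markers summed to 4950 CPM (read counts scaled to library size with TMM factors) in first tap 2, against 586 to 2190 CPM in the other taps. The 4 fat markers summed to 1560 CPM in subcutaneous tumour 2 and 7.9 CPM in subcutaneous tumour 3. The 6 markers of intestinal epithelium reached 5170 to 14700 CPM in the 3 solid tumours there, against 10800 CPM in healthy intestine and at most 143 CPM elsewhere. The healthy ovary library also held oviduct, with Ovgp1, the oviduct glycoprotein, at 1250 CPM. The part of these cells in the values below was not tested.

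**Figure D1:**
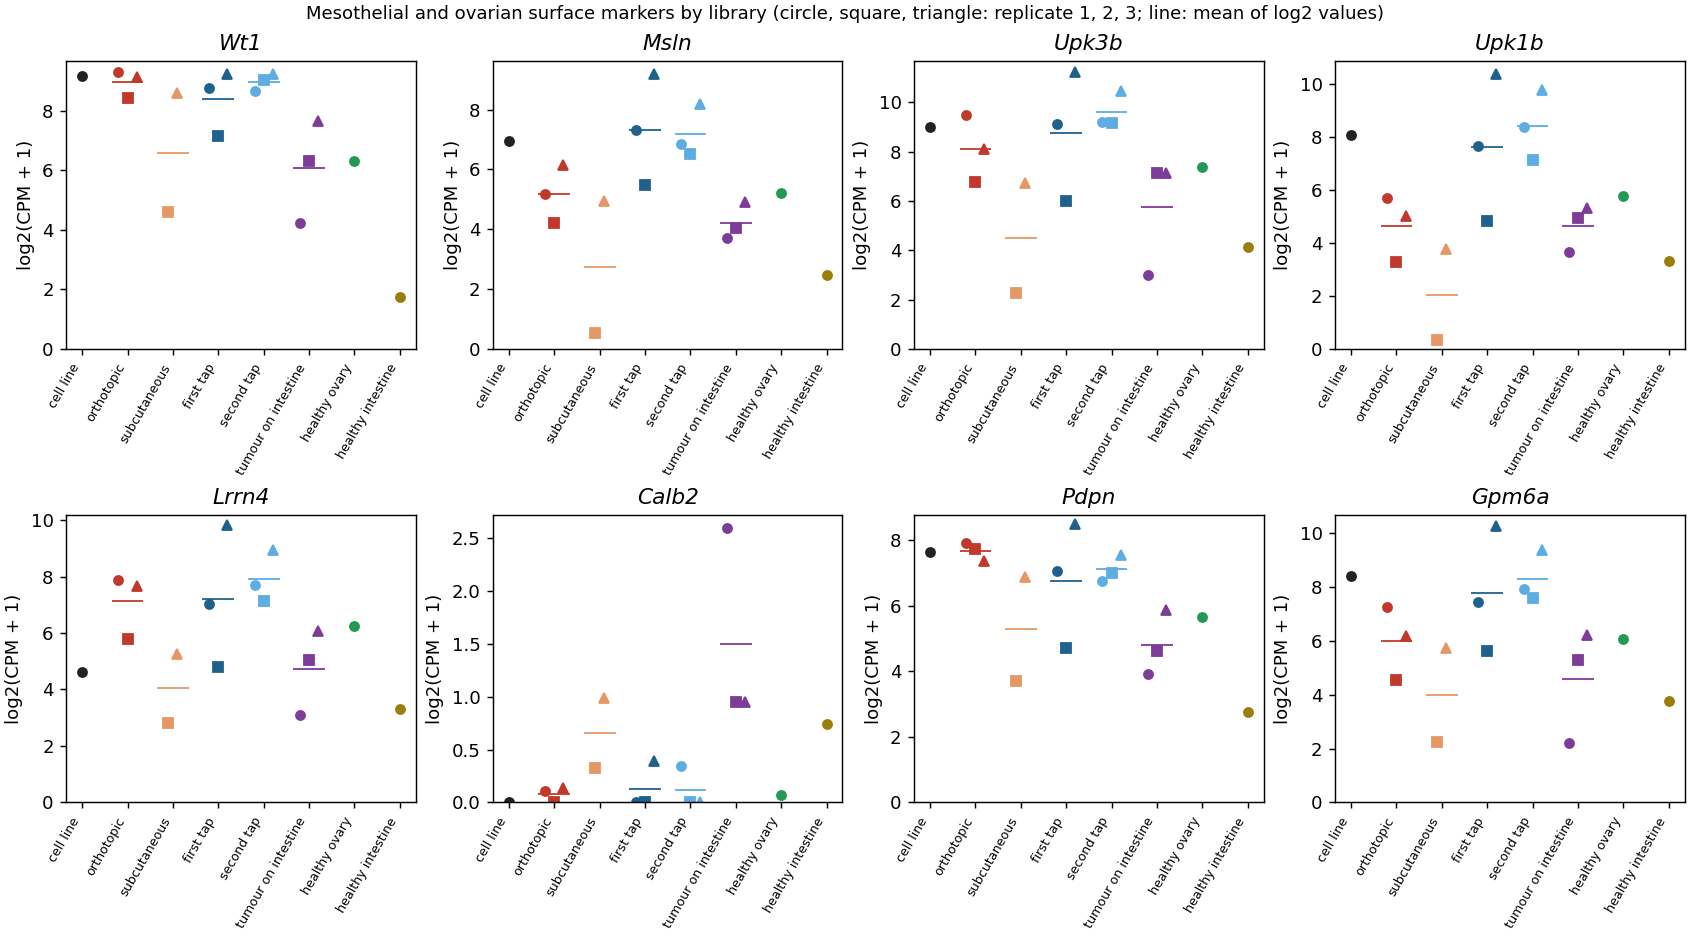
Each panel plots log2(CPM + 1) of 1 gene for the 17 libraries in 8 groups, with a line at the mean of the log2 values where a group has more than 1 library. Calb2 stays at or under 5.04 CPM in each library, while the other 7 genes are highest of the taps in first tap 3 and lowest of them in first tap 2, and Lrrn4 has 23.8 CPM in the line.

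Wt1 (ENSMUSG00000016458), the zinc finger transcription factor of the coelomic lineage, had group means nearest to the cultured line in orthotopic tumours and ascites. These means were 88.5% of the line in orthotopic tumours, 68.5% in the first tap and 88.3% in the second. Single libraries fell further, with orthotopic tumour 2 at 59.9% and first tap 2 at 24.2%. The line had 577 CPM of Wt1. Orthotopic tumours 1, 2 and 3 had 625, 345 and 561 CPM. The taps ran from 140 CPM in first tap 2 to 610 CPM in first tap 3, with second taps 1, 2 and 3 at 407, 521 and 600 CPM. These ranges overlapped. Under the skin, tumours 2 and 3 had 23.0 and 385 CPM, and tumours on the intestine 1, 2 and 3 had 17.8, 78.5 and 199 CPM. Healthy ovary had 78.4 CPM and healthy intestine 2.31 CPM, so each tumour and tap lay above healthy intestine. By mean, the order ran from the line through orthotopic tumours, second tap, first tap, subcutaneous tumours and tumours on the intestine to ovary and intestine, and of these neighbours only the last pair did not overlap. Granulosa cells also express Wt1. In orthotopic tumours the granulosa genes Fshr and Cyp19a1 stood at 0.0332 to 0.789 CPM and at 0, against 31.9 and 70.9 CPM in healthy ovary, while Foxl2 stood at 11.9 to 38.4 CPM against 23.1 CPM. The 7 granulosa markers summed to 806 to 1380 CPM in these tumours, 3400 CPM in healthy ovary and 24.1 CPM in the line, and their part in Wt1 was not tested.

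Msln (ENSMUSG00000063011), which encodes mesothelin, a lipid-anchored surface protein that binds the mucin MUC16, had its highest group means in ascites, where 3 of 6 taps were above the line and 3 below it. The line had 124 CPM. First taps 1, 2 and 3 had 158, 44.0 and 584 CPM, and second taps 1, 2 and 3 had 114, 90.9 and 292 CPM. Orthotopic tumours 1, 2 and 3 had 35.4, 17.6 and 69.5 CPM, all under the line and under every second tap, but not under first tap 2. Subcutaneous tumours 2 and 3 had 0.434 and 30 CPM, and tumours on the intestine 1, 2 and 3 had 12, 15.3 and 28.8 CPM. Healthy ovary stood at 36.3 CPM and healthy intestine at 4.57 CPM. Muc16, the partner of mesothelin, had 0.609 CPM in the line and 0.616 CPM in healthy intestine. It had 5.74 to 192 CPM in the taps, with a median of 45.8 CPM, and 2.46 to 18.7 CPM in orthotopic tumours. The line thus held Msln at a level within the range of the taps and Muc16 below that range.

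Upk3b (ENSMUSG00000042985) and Upk1b (ENSMUSG00000049436) encode membrane proteins of the uroplakin family, which coat the bladder lining and are also made by mesothelium. Upk3b had 513 CPM in the line. It had 717, 109 and 276 CPM in orthotopic tumours 1, 2 and 3, 557, 62.4 and 2410 CPM in first taps 1, 2 and 3, and 585, 570 and 1420 CPM in second taps 1, 2 and 3. First tap 3 and second tap 3 were the highest of all libraries, and orthotopic tumours and the first tap overlapped. Under the skin, tumours 2 and 3 had 3.78 and 105 CPM, tumours on the intestine 1, 2 and 3 had 6.93, 138 and 139 CPM, healthy ovary had 164 CPM and healthy intestine 16.6 CPM. Per kilobase of annotated exon, Upk3b was the highest of the 8 genes in 10 of 17 libraries.

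Upk1b, a tetraspanin, was further below the line than Upk3b in each solid tumour but tumour on the intestine 1. There Upk1b stood at 4.36% of the line and Upk3b at 1.35%. Upk1b had 268 CPM in the line and 50.6, 8.64 and 31.1 CPM in orthotopic tumours 1, 2 and 3. First taps 1, 2 and 3 had 202, 27.4 and 1320 CPM, and second taps 1, 2 and 3 had 330, 137 and 881 CPM. The second tap lay above the orthotopic tumours in all 3 libraries, and the first tap overlapped them through first tap 2. Subcutaneous tumours 2 and 3 had 0.261 and 12.6 CPM, tumours on the intestine 1, 2 and 3 had 11.7, 29.7 and 38.6 CPM, healthy ovary had 53.9 CPM and healthy intestine 9.09 CPM. The bladder uroplakins Upk2 and Upk3a stayed at or under 0.63 CPM in all libraries but both subcutaneous tumours, where Upk2 had 1.56 and 0.884 CPM and Upk3a 4.25 and 0.196 CPM. Upk1a had 57.9 CPM in healthy ovary and at most 3.78 CPM elsewhere.

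Lrrn4 (ENSMUSG00000043110), a leucine-rich repeat membrane protein used as a marker of mesothelium, had a lower level in the cultured line than in each orthotopic tumour and each tap. The line had 23.8 CPM. Orthotopic tumours 1, 2 and 3 had 236, 53.9 and 204 CPM, first taps 1, 2 and 3 had 129, 26.8 and 916 CPM, and second taps 1, 2 and 3 had 207, 138 and 495 CPM. All 9 of these libraries lay above the line, first tap 2 by little. Under the skin, tumours 2 and 3 had 5.99 and 37.6 CPM and tumours on the intestine 1, 2 and 3 had 7.56, 32.4 and 66.0 CPM, ranges that held the value of the line. Healthy ovary had 74.4 CPM and healthy intestine 8.93 CPM.

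Upk3b and Lrrn4 were close in pattern across libraries (Pearson correlation of log2(CPM + 1) 0.912, Spearman 0.912, 17 libraries that share host tissue between groups), yet the line was high for 1 and low for the other. Their promoter sequences are shown for this reason, as the 250 bases before the start of the gene, from RefSeq on build GRCm38.p6. The table held windows for 4 of the 8 genes. The Upk3b window is chr5:136038246-136038495 on the plus strand and the Lrrn4 window chr2:132880863-132881112 on the minus strand. Capitals mark the letters CATTCC or GGAATG, the core bound by TEAD factors, on either strand.
Upk3b: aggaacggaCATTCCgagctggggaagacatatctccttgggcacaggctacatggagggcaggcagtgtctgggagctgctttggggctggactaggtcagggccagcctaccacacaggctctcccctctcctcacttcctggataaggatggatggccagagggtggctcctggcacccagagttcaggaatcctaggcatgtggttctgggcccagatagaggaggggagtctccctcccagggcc
Lrrn4: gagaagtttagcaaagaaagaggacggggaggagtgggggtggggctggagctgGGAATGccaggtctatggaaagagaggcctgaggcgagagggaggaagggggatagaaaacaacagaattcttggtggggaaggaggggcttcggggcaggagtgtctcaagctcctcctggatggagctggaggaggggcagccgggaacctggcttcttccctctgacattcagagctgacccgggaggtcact
Each window held this core 1 time, as did 12.6% of 32817 promoter windows of the same length with any number of matches. Neither held the AP-1 letters TGANTCA (6.75% of windows), the WT1 and EGR letters GTGGGAG or CTCCCAC (8.25%) or the SP and KLF letters GGGCGG or CCGCCC (32.7%). The window of Pdpn held none of the 4 motifs. Of 2 windows of Gpm6a, 1 held the TEAD letters. The 30 bases after either Gpm6a window were not found in a GENCODE transcript of the gene, while those of Upk3b, Lrrn4 and Pdpn were. A match of letters is a description and not a site.

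Gpm6a (ENSMUSG00000031517), a membrane glycoprotein known from neurons and also made by mesothelium, had 340 CPM in the line. Orthotopic tumours 1, 2 and 3 had 152, 22.5 and 72.1 CPM, all under the line. First taps 1, 2 and 3 had 173, 48.4 and 1230 CPM, and second taps 1, 2 and 3 had 242, 190 and 666 CPM. The second tap lay above the orthotopic tumours and on both sides of the line. Subcutaneous tumours 2 and 3 had 3.69 and 51.8 CPM, tumours on the intestine 1, 2 and 3 had 3.57, 38.2 and 73.2 CPM, healthy ovary had 65.4 CPM and healthy intestine 12.5 CPM. Gene models of uncertain status overlap the span of Gpm6a on the same strand in GENCODE M21. Whether they share its exons or affect its counts was not examined.

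Pdpn (ENSMUSG00000028583), podoplanin, a mucin-type protein of mesothelium, lymphatic vessels and activated fibroblasts, varied least among orthotopic tumours, with 240, 215 and 163 CPM in tumours 1, 2 and 3 and 198 CPM in the line. First taps 1, 2 and 3 had 133, 25.3 and 361 CPM, and second taps 1, 2 and 3 had 107, 129 and 189 CPM. Under the skin, tumours 2 and 3 had 12 and 116 CPM, and tumours on the intestine 1, 2 and 3 had 14.1, 23.3 and 57.6 CPM, all under the orthotopic range. Healthy ovary had 49.1 CPM and healthy intestine 5.80 CPM. Orthotopic tumour 2 was low for Upk1b, Gpm6a and Lrrn4 but not for Pdpn. The 6 fibroblast markers summed to 3820 CPM in that tumour, against 2690 and 1740 CPM in orthotopic tumours 1 and 3. Prox1, the transcription factor that defines lymphatic endothelium, had 11.7 CPM there, against 3.76 and 2.58 CPM, while the 5 lymphatic markers together had 43.3 CPM, against 97.2 and 83.0 CPM. Their part in the Pdpn level was not tested.

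Calb2 (ENSMUSG00000003657), which encodes the calcium binder calretinin, was nearly absent outside the intestine and subcutaneous tumour 3. No read was counted in the line, which allows up to 0.0795 CPM (3 counts, for counting error only). Orthotopic tumours 1, 2 and 3 had 3, 0 and 4 reads. In ascites 4 of 6 libraries had no read, and first tap 3 and second tap 1 had 8 and 9 reads. Both are among the 3 libraries with the most genes counted, and the third, subcutaneous tumour 3, had 20 reads, or 0.982 CPM. Subcutaneous tumour 2, with 24003 genes counted, had 6 reads, or 0.261 CPM. Healthy ovary had 2 reads. Tumours on the intestine 1, 2 and 3 had 48, 22 and 26 reads, or 5.04, 0.934 and 0.925 CPM, and healthy intestine had 13 reads, or 0.667 CPM. Enteric neurons make calretinin. The 8 enteric neuron markers together had 33.3 to 54.7 CPM in tumours on the intestine and 20.2 CPM in healthy intestine. Orthotopic tumours had 41.5 to 57.7 CPM of them and the taps 11.1 to 24.0 CPM. Subcutaneous tumours 2 and 3 had 9.16 and 45.7 CPM of them. Of the 8 markers, 6 were higher in tumours on the intestine than in orthotopic tumours by log2 fold change, and the rest were not. Vip and Chrna3 are 2 of the 8. In the solid spread Vip had 1.42 to 5.98 CPM and Chrna3 2.12 to 7.14 CPM, highest in tumour 1 as for Calb2. Healthy intestine had 1.85 and 0.924 CPM. In orthotopic tumours both were at 0. The part of enteric neurons in the Calb2 level was not tested.

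The relation of some members to Wt1 also differed between sites. Counts of each gene were set against 100 Wt1 counts of the same library, a ratio that needs no scaling between libraries. Upk1b had 46.4 counts per 100 Wt1 counts in the line. It had 8.10, 2.50 and 5.54 in orthotopic tumours 1, 2 and 3, and 1.13 and 3.26 in subcutaneous tumours 2 and 3. The taps had 19.6 to 216 with a median of 63.8, and tumours on the intestine 1, 2 and 3 had 65.3, 37.9 and 19.4. For Upk1b both primary sites thus lay under the line, under each tap and under each tumour on the intestine. Healthy intestine had 393, from only 45 Wt1 counts, and the part of intestinal tissue in the ratios of the tumours there was not tested. Msln followed with 21.5 in the line, 5.08 to 12.4 in orthotopic tumours, 1.89 and 7.80 in subcutaneous tumours, 17.5 to 95.7 in the taps, 14.4 to 67.1 in tumours on the intestine and 198 in healthy intestine. Gpm6a had 59.0 in the line, 6.52 to 24.3 in orthotopic tumours, 16.0 and 13.5 in subcutaneous tumours and 34.6 to 202 in the taps. Tumours on the intestine had 20.0 to 48.7 for Gpm6a, which overlapped the orthotopic tumours, and healthy intestine had 542. Lrrn4 differed, with 4.12 in the line and more in each other library. It had 15.6 to 37.8 in orthotopic tumours, 26.0 and 9.76 in subcutaneous tumours, 19.2 to 150 in the taps, 33.1 to 42.4 in tumours on the intestine and 387 in healthy intestine. Healthy ovary had 68.7 for Upk1b, 46.3 for Msln, 83.4 for Gpm6a and 94.9 for Lrrn4. Pdpn and Upk3b overlapped between orthotopic tumours, taps and tumours on the intestine. Pdpn had 29.1 to 62.2, 18.1 to 59.2 and 28.9 to 78.8 in that order, and 34.4 in the line. Upk3b had 31.5 to 115, 44.6 to 395 and 38.8 to 176, and 88.9 in the line. Per 100 Upk3b counts, Msln overlapped between orthotopic tumours (4.93 to 25.2) and taps (16 to 70.6). Upk1b did not (7.06 to 11.3 and 24.1 to 61.9). These ratios were chosen after the values were seen and are given without a test.

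**Figure D2:**
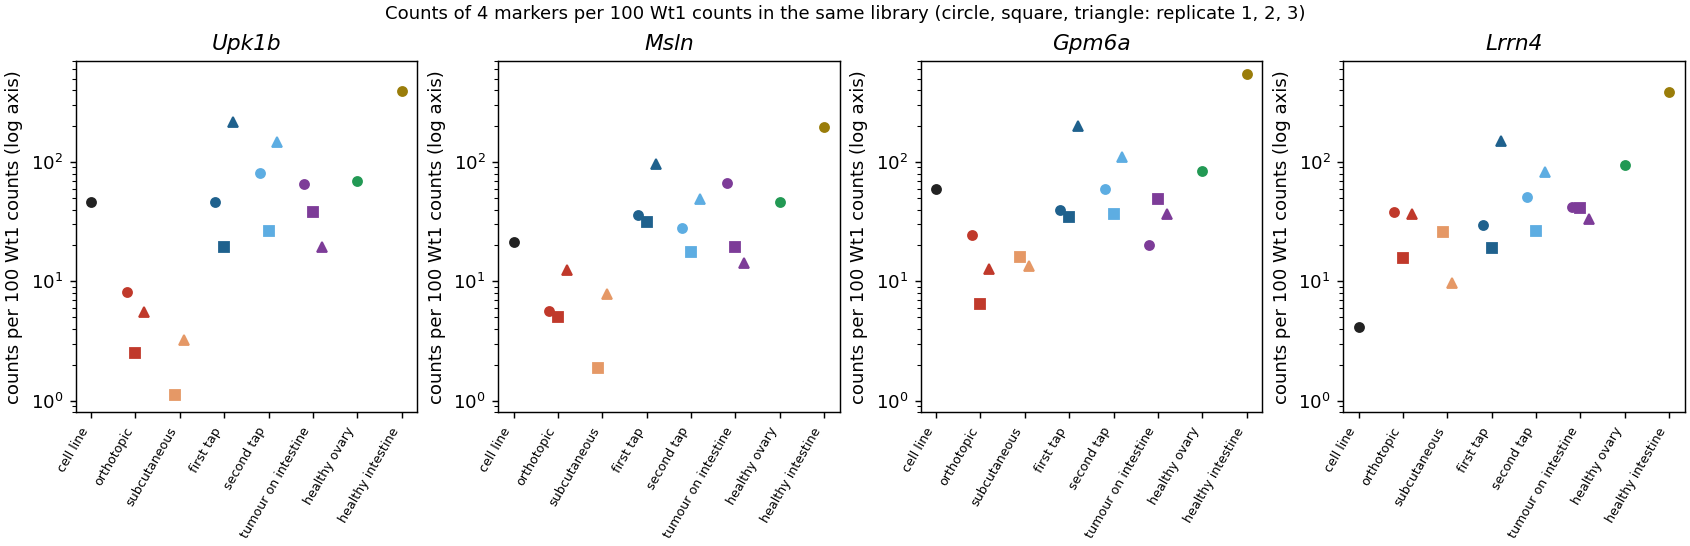
Counts of Upk1b, Msln, Gpm6a and Lrrn4 per 100 Wt1 counts of the same library, on a log axis, for 17 libraries in 8 groups. Upk1b is lowest in orthotopic and subcutaneous tumours, at 1.13 to 8.10, and Lrrn4 is lowest in the cultured line, at 4.12.

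Ascites and orthotopic tumours were compared to see what changes when tumour cells leave the ovary for the peritoneal fluid. In edgeR's quasi-likelihood test no member passed at an adjusted p under 0.05 in either tap. For the first tap 1.58% of all genes passed, 2 of 8 members had an unadjusted p under 0.05 (18.9% of all genes), and DESeq2 called 1 member (11.4% of all genes). For the second tap 1.09% of all genes passed, 1 of 8 members had an unadjusted p under 0.05 (16.3% of all genes), and DESeq2 called 1 (8.91% of all genes). Upk1b had the largest difference. Its mean was 516 ± 699 CPM (SD, n = 3) in the first tap, 450 ± 386 CPM (SD, n = 3) in the second and 30.1 ± 21 CPM (SD, n = 3) in orthotopic tumours. The log2 fold change was 4.10 ± 1.45 (SE, adjusted p = 0.156) for the first tap and 3.90 ± 1.44 (adjusted p = 0.203) for the second. Msln differed by 2.68 ± 1.18 (adjusted p = 0.242) and 2.02 ± 1.15 (adjusted p = 0.406) in that order, and Gpm6a by 2.56 ± 1.33 (adjusted p = 0.323) and 2.16 ± 1.31 (adjusted p = 0.435). The member median was 1.29 for the first tap and 1.00 for the second, beside 0.18 and 0.13 over all genes tested. The 2 comparisons share the orthotopic tumours. Upk1b was the member DESeq2 called in both, with an adjusted p of 0.0105 and 0.0219.

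The second tap was not distinguishable from the first for these genes. No member passed in edgeR, none had an unadjusted p under 0.05 and DESeq2 called none, beside 0% of all genes in edgeR, 0.64% of all genes at that unadjusted p and 0.00441% in DESeq2. First tap 2 and first tap 3 were the lowest and the highest of the 6 taps for 7 members, all but Calb2. For these 7 genes the second tap thus lay within the range of the first.

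Tumours on the intestine held less of 7 members than ascites in the mean, and more Calb2, which passed the test. This comparison asks how solid spread differs from tumour in fluid. In edgeR 1 of 8 members passed (18.3% of all genes, 12.4% higher and 5.85% lower), all 8 had an unadjusted p under 0.05 (32.8% of all genes) and DESeq2 called all 8 (26.6% of all genes). Calb2 rose by 4.52 ± 1.37 on the log2 scale (SE, adjusted p = 0.0384), from 0.0954 ± 0.148 CPM (SD, n = 6) to 2.3 ± 2.37 CPM (SD, n = 3). The call was lost in 6 of the 9 fits that left out 1 library. It was 3.29 (adjusted p = 0.222) without tumour on the intestine 1, 4.89 (0.0725) without tumour on the intestine 2, 4.16 (0.0686) and 4.19 (0.0628) without first taps 1 and 2, and 4.2 (0.0726) and 4.32 (0.0758) without second taps 2 and 3. Without first tap 3 or second tap 1 it was 6.76 (adjusted p = 0.0167) and 6.68 (adjusted p = 0.0215).

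The other 7 members missed the edgeR threshold in this comparison. Upk1b differed by -4.17 ± 1.40 (adjusted p = 0.0573), Msln by -3.48 ± 1.16 (adjusted p = 0.057), Gpm6a by -3.45 ± 1.31 (adjusted p = 0.0889) and Upk3b by -3.30 ± 1.37 (adjusted p = 0.116). Lrrn4 differed by -3.16 ± 1.15 (adjusted p = 0.0785), Pdpn by -2.30 ± 0.85 (adjusted p = 0.0808) and Wt1 by -2.18 ± 0.88 (adjusted p = 0.105). In DESeq2 the adjusted p of these 7 ran from 0.000786 for Upk1b to 0.0288 for Wt1. The median over the 8 members was -3.23, beside -0.17 over all genes tested. First tap 2 had the most macrophage RNA and was the lowest tap for the 7 members other than Calb2. Leaving it out raises the mean of the taps for each of these 7. In that fit 4 members passed as lower in edgeR, beside 1658 lower and 4473 in all of 22469 genes. These were Upk1b at -4.45 (adjusted p = 0.0305), Pdpn at -2.55 (0.0351), Lrrn4 at -3.43 (0.039) and Msln at -3.73 (0.0397). No member passed as lower in the main fit or in any other fit of this comparison that left a library out. The fit without first tap 2 is described because its result differed. The intestinal epithelium of these samples, given above, enters the same ratio, and its part was not tested.

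Against orthotopic tumours, tumours on the intestine passed for no member in edgeR (15.5% of all genes). At an unadjusted p under 0.05 there were 3 of 8 (31.6% of all genes), and DESeq2 called 3 (26.4% of all genes). These were Pdpn, at -2.70 ± 0.93 (edgeR adjusted p = 0.0681), Wt1, at -2.37 ± 0.95 (adjusted p = 0.109), and Calb2, at 5.08 ± 1.85 (adjusted p = 0.0821), with a DESeq2 adjusted p of 0.0129, 0.0374 and 0.0287. The ranges of these 3 genes were apart, in the same libraries that gave the p-values, so this is no further support. The member median was -1.54, beside 0.06 over all genes.

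**Figure D3:**
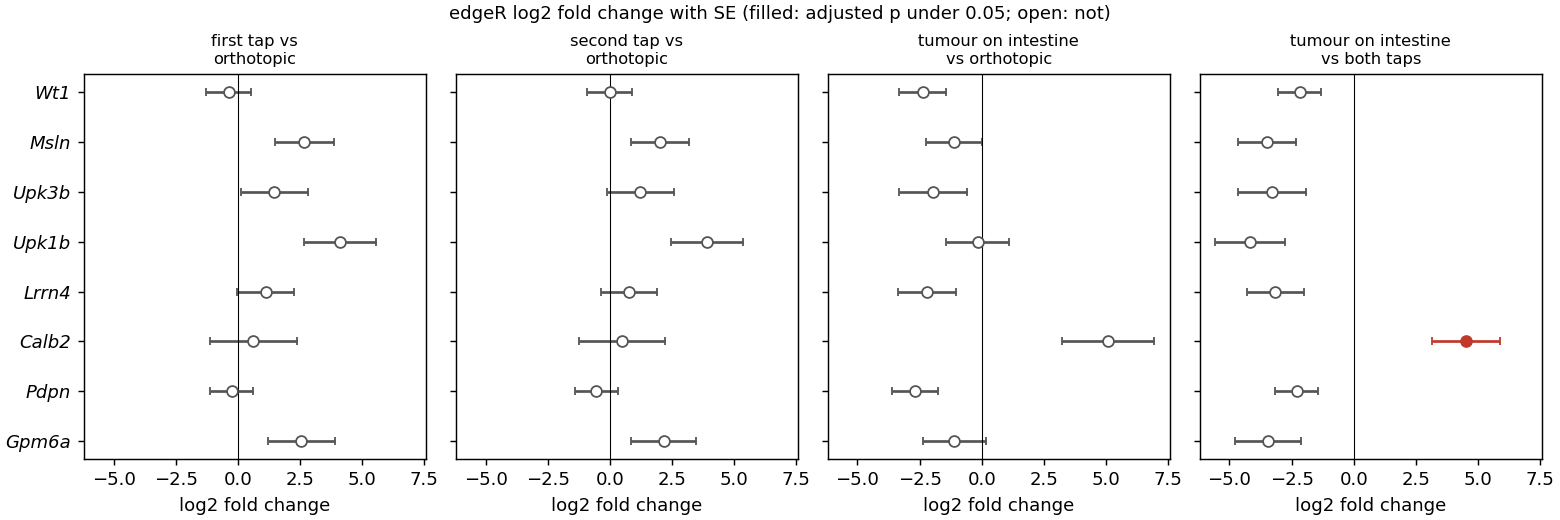
The edgeR log2 fold change of each member with its standard error in 4 comparisons, where a positive value favours the first group named. Calb2 against both taps is the only filled point, at 4.52, and the other 7 members lie between -4.17 and -2.18 in that panel.

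Subcutaneous tumours passed for no member against orthotopic tumours in edgeR (0.0132% of all genes), with none at an unadjusted p under 0.05 (20.7% of all genes) and none in DESeq2 (10.1% of all genes). Lrrn4 differed by -2.92 ± 1.42 (adjusted p = 0.262), Upk3b by -2.75 ± 1.66 (adjusted p = 0.343) and Pdpn by -1.68 ± 1.03 (adjusted p = 0.352). For these genes both subcutaneous tumours lay under the orthotopic tumours, for Upk3b by little (105 against 109 CPM). Calb2 had the opposite sign, at 3.22 ± 1.83 (adjusted p = 0.321), with both subcutaneous tumours above the orthotopic tumours. For the other members the groups overlapped. The ranges come from the libraries that gave the p-values, so they are no further support. The share of all genes with ranges apart was not computed. The 2 subcutaneous tumours were unlike, and Wt1 was 23.0 CPM in one and 385 CPM in the other.

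Comparisons with the lone library of the line ask what changes when cultured cells grow in the animal, and they assume that this library varies like the other groups. No member passed in edgeR in orthotopic tumours (3.2% of all genes), subcutaneous tumours (9.49%) or both taps (6.2%). Unadjusted p values under 0.05 were found for 0, 1 and 0 members (20.9%, 29.1% and 22.7% of all genes), and DESeq2 called 0, 1 and 1 (16.8%, 26.7% and 19.1% of all genes). Upk1b differed from the line by -3.15 ± 1.64 (adjusted p = 0.302) in orthotopic tumours and by -5.38 ± 2.00 (adjusted p = 0.104, and 0.0186 in DESeq2) in subcutaneous tumours. Gpm6a differed by -2.05 ± 1.63 (adjusted p = 0.512) in orthotopic tumours. Lrrn4 had the opposite sign, at 2.79 ± 1.91 (adjusted p = 0.441) in orthotopic tumours and 3.73 ± 1.99 (adjusted p = 0.289, and 0.0436 in DESeq2) in the taps. Msln differed by -3.02 ± 1.62 (adjusted p = 0.229) in subcutaneous tumours, and without subcutaneous tumour 3 it was -8.28 (adjusted p = 0.0288). That fit set 1 library against 1, with the spread taken only from the other groups.

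Against the lone healthy tissues no member passed in edgeR, beside 0.6% of all genes for orthotopic tumours against ovary and 0% for tumours on the intestine against intestine. Members with an unadjusted p under 0.05 numbered 0 and 1 (11.2% and 2.58% of all genes), and DESeq2 called 0 and 1 (3.44% and 0.198% of all genes). Wt1 was 2.70 ± 1.53 (adjusted p = 0.55) and Pdpn 2.07 ± 1.41 (adjusted p = 0.631) above healthy ovary in orthotopic tumours on the log2 scale, with all 3 tumours above that library. Wt1 was 5.41 ± 1.83 (edgeR adjusted p = 1.00, and 0.018 in DESeq2) above healthy intestine in tumours on the intestine. The lowest of these tumours had 17.8 CPM and healthy intestine 2.31 CPM.

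Other genes of mesothelium and ovarian surface were read from a list of 14, all tested. In edgeR none passed in 9 of the 11 comparisons, and Krt8, a keratin of simple epithelia that intestinal epithelium also makes, was the only one called. It rose by 2.98 ± 0.78 (adjusted p = 0.0249) in tumours on the intestine against orthotopic tumours and by 2.14 ± 0.60 (adjusted p = 0.0279) against both taps. Healthy intestine had 970 CPM of Krt8 and the 3 tumours 1230, 1040 and 410 CPM, the last within the range of the taps. Members of the list split in the line. Krt19, a keratin of simple epithelia, had 611 CPM there, Crb2, a cell polarity protein, 176 CPM, and Bnc1, a zinc finger protein, 53.9 CPM. As with Lrrn4, other genes were low in culture. Nkain4, a small membrane protein, had 0.53 CPM, Aldh1a2, which makes retinoic acid, 1.51 CPM, and Rspo1, a secreted activator of Wnt signalling, 1.85 CPM. In orthotopic tumours Nkain4 had 4.02 to 12.3 CPM, Aldh1a2 9.76 to 31.2 CPM and Rspo1 54.5 to 145 CPM. In the taps they had 4.08 to 66.7, 4.35 to 129 and 5.10 to 126 CPM. Each of these 9 libraries lay above the line for all 3 genes. In healthy ovary they stood at 6.83, 143 and 43.2 CPM. These genes were named for their low level in the line after it was seen, and they did not pass the test.

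**Figure D4:**
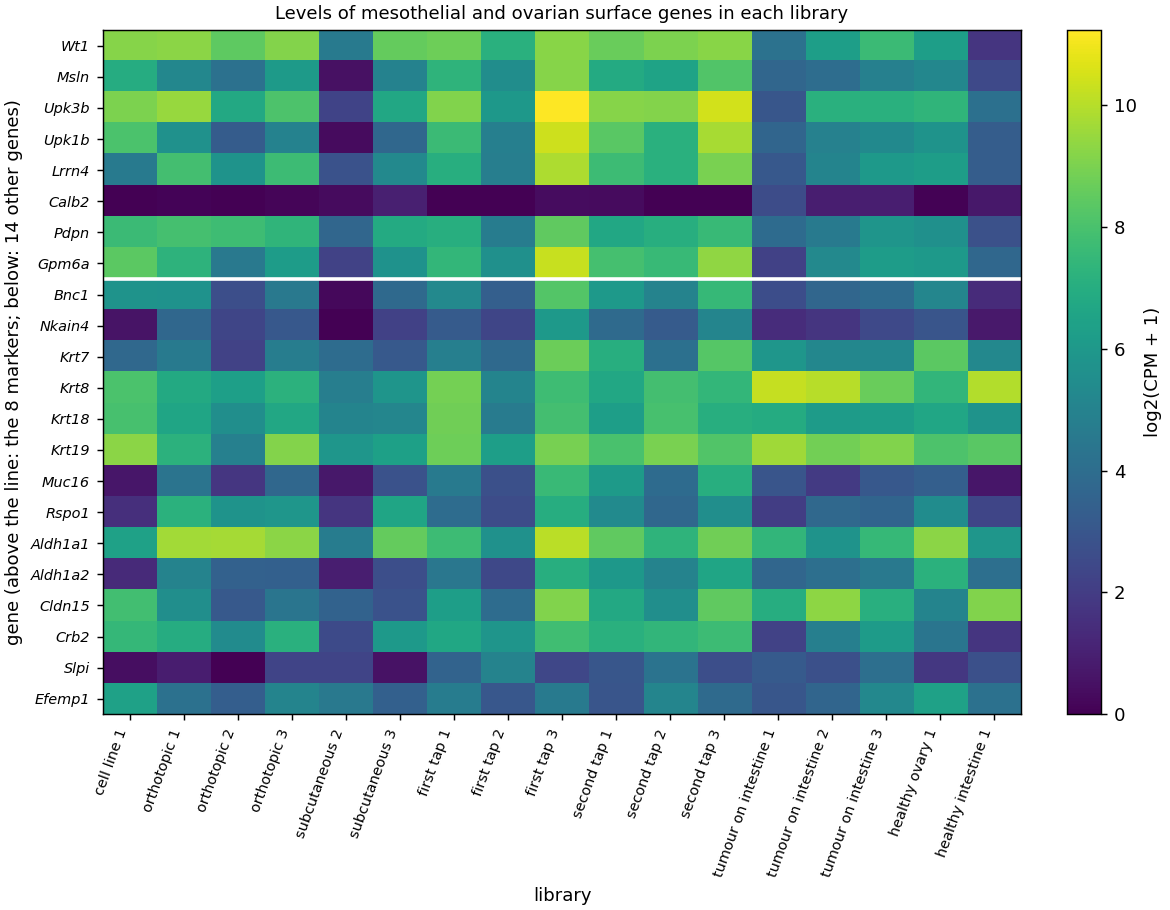
Colour gives log2(CPM + 1) of the 8 markers (above the white line) and 14 other genes of mesothelium and ovarian surface (below it) in each of the 17 libraries. First tap 3 and second tap 3 are bright for most genes of both sets, and Nkain4, Muc16, Aldh1a2, Rspo1 and Slpi are dark in the cell line.

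The genes closest to each member were sought among tested genes with at least 10 CPM in 1 library, by Pearson's correlation of log2(CPM + 1) over the 17 libraries, which share host tissue and tumour content within groups. Wt1 was closest to Ildr2 (0.989), Celsr1 (0.974) and Zbtb7c (0.974). Upk3b was closest to Myrf (0.958), Dpysl5 (0.953) and Plxna4 (0.943), and Gpm6a to Kcnab1 (0.976), Dpysl5 (0.974) and Bicc1 (0.956). Kcnab1 and Bnc1 were among the 3 closest to both Msln (0.957 and 0.946) and Upk1b (0.95 and 0.953), with Thsd4 (0.953) for Msln and Shroom2 (0.944) for Upk1b. Lrrn4 was closest to Nkain4 (0.952), Syne2 (0.932) and Pcnxl2 (0.931), and Pdpn to Glis2 (0.972), Tgfb3 (0.971) and Arhgef17 (0.969). Among members, Upk3b and Gpm6a were closest (0.968), then Msln and Upk1b (0.949) and Wt1 and Pdpn (0.942). Calb2 was closest to Frmd3 (0.973), Slc6a18 (0.973) and Celf6 (0.95). On this scale Calb2 had 2.59 in tumour on the intestine 1 and at most 0.99 in the other libraries. Its Pearson values therefore lean on that library and on few reads. Wt1 and Upk1b were further apart (0.641), and Calb2 had negative values with the other 7, from -0.546 to -0.341.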

How the data were processed

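The authors deposited unnormalized read counts for 43629 Ensembl genes. The submitters' processing notes name HISAT, HISAT2, featureCounts and DESeq2 and the builds hg19 and mm39. Versions and the strand setting of the counting are not given in the sources used here. The 2 deposited files were identical, and 1 column that no label names was left out. Trizol was used for extraction and a directional kit for the total RNA libraries, per the labels.

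The test was that of edgeR 4.0.16 under R 4.3.3 (quasi-likelihood, robust, TMM, factors 0.701 to 1.37) in 1 fit of 17 libraries with 9 residual degrees of freedom. Genes above 0.5 CPM in at least 2 libraries were tested, 22671 in all, and p-values were adjusted by Benjamini and Hochberg over them. CPM used the total over tested genes times the TMM factor. The SE is the log2 fold change over the root of F. Of 11 comparisons, 6 had replicates on both sides and 5 set a group against 1 library. The call was an adjusted p under 0.05. DESeq2 1.42.0 was an alternative. The scripts were tested on simulated data. Totals of 12031221 to 38902048 counts set the precision, and the limit for a count of 0 is 3 counts.

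The members and lists were chosen with earlier results of these data known. All 8 members are named, with up to 4 called genes of the list of 14 and the 3 genes closest to each member; other names were chosen after their values were seen. Exon lengths came from GENCODE M21.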

Additional observations from a re-analysis of the deposited data

How the results depend on the processing

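The counts of members called depended on the tool. DESeq2 called 8 for tumours on the intestine against both taps (1 in edgeR), 3 against orthotopic tumours (0 in edgeR), and 1 in place of 0 for the first and second tap against orthotopic tumours, subcutaneous tumours and both taps against the line, and tumours on the intestine against healthy intestine. Over all genes it also called more, with 2591 against 358 for the first tap, 2021 against 248 for the second tap, 5983 against 3517 for tumours on the intestine and 2300 against 3 for subcutaneous tumours, each against orthotopic tumours. With library size alone, Calb2 was lost against both taps (0 members, 4.14, adjusted p = 0.0656), and the median of all genes moved from -0.17 to -0.42 there. Leaving out 1 library gave 0 to 4 members in that comparison, beside 2191 to 4473 of all genes. For subcutaneous tumours against the line, leaving out a tumour set 1 library against 1, with the spread of the other groups. With the replicate number as a block, 3 members passed for tumours on the intestine against both taps, beside 3721 of 22671 genes. Calb2 was higher, and Msln and Pdpn were lower. Against orthotopic tumours 1 member passed (Pdpn, -3.10, adjusted p = 0.0272), beside 3189 genes. For subcutaneous tumours against the line 2 members passed, beside 1661 genes. The other member counts stayed at 0. The numbers were not shown to pair the samples. Same-numbered libraries of different groups had correlated deviations of -0.557 to 0.441 with a median of 0.045 over 26 pairs. Differently numbered ones had -0.352 to 0.673 with a median of -0.022 over 52 pairs, and 7 of 14 libraries correlated best with their own number. Between the taps, first tap 1 was closest to second tap 2 (0.673), first tap 2 to second tap 1 (0.415) and first tap 3 to second tap 3 (0.441). The main fit treated the taps as separate samples, and whether any shared an animal was not tested. The other filters and DESeq2 size factors in edgeR changed no count. Of the 88 member folds, 25 changed sign under at least 1 alternative, the largest of them 1.46, and none of the 30 printed did. Group means in CPM moved by less than 1 SD under both other scalings. Calb2 had at most 48 reads in a library, so depth limits its values, and the spread between tumours on the intestine (5.04, 0.934 and 0.925 CPM) limits them too.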
